A study of Mus musculus with 8 samples.

Results

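T cells at rest are held there by a set of transcription factors, a cytokine receptor and a pair of proteins that slow growth, and the mRNA of 9 such genes is described here in mouse Th1 cells: Foxo1, Foxo3, Foxp1, Klf3, Klf6, Satb1, Il7r, Tob1 and Btg1. They were taken by name, with no measured value in the rule, but with earlier results of these data known. They are 9 of the 33837 genes whose values could be tied to a gene name. All 9 passed the filter on low values in both experiments, but Klf3 passed it in the knockdown only through the 2 hairpin libraries, so its rise there is no independent support for a direction.

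FOXO factors are forkhead proteins that AKT phosphorylates and keeps out of the nucleus when the antigen receptor and cytokines signal, and in resting T cells they drive genes of survival, homing and cell cycle arrest, Il7r and Klf2 among them. FOXP1, a forkhead repressor needed for naive T cell quiescence, can oppose FOXO1 at Il7r. Krueppel-like factors bind GC-rich and CACCC elements, and the BTG and TOB proteins bring the CCR4-NOT deadenylase to mRNA.

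The cells were C57BL/6 CD4 T cells activated in culture through CD3 and CD28 and steered to Th1, the interferon gamma producing helper type, with IL-12 (2 ng/ml) and an antibody that blocks IL-4 (5 µg/ml). There were 4 groups of 2 libraries. One experiment compared cells transduced with a short hairpin against Pcbp1, an RNA-binding protein and iron chaperone, with cells given a scrambled hairpin, in rRNA-depleted total RNA. The other compared cells treated with ciclopirox olamine (CPX), an iron chelator, with cells given DMSO, in polyA RNA. The sources used here give no vector, hairpin sequence, CPX dose or time in culture. Nor do they say if replicates were cultures or animals of their own, and p-values then measure the spread between these libraries, which may be technical.

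Gene-assigned reads per library numbered 14174293 to 15518303 in the knockdown, and in the CPX experiment 38051831 to 38972945 reads as worked back from its table. Levels are given in RPM, a gene's share of its library's total times 1e+06. Replicates correlated across genes at 0.954 (CPX) to 0.993 (scrambled), and 15.4% of genes differed by over 2-fold between the CPX libraries against 0.665% between the scrambled ones. Pcbp1 itself read 44.0 and 51.7 RPM in the scrambled and 15.1 and 16.1 RPM in the hairpin libraries. It also read lower with CPX, at 238 and 199 RPM against 506 and 538 with DMSO. All 14 T cell and Th1 markers reached 1 RPM in at least 1 library. Of these 5 rose and 6 fell in the knockdown and 1 rose and 7 fell with CPX. Over all genes tested 29.3% rose and 26.7% fell in the knockdown, and 20.0% rose and 24.8% fell with CPX. Ifng made up most of their summed level in every library except CPX replicate 1. It read 50383 and 40954 RPM with scrambled, 24818 and 18990 with hairpin, 14026 and 23804 with DMSO and 1106 and 4983 with CPX. The other 13 summed to 2321 and 2435, 1845 and 1901, 1957 and 2952, and 2073 and 2054 RPM in the same order. In bulk RNA, fewer cells of a type and less RNA per cell cannot be told apart.

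RefSeq (GRCm38.p6) gave promoter windows for all 9 genes, and 5 are printed because they belong to the members on which the results turn: the FOXO genes, 2 genes that moved in opposite directions in the experiments (Klf6 and Il7r), and Btg1, the only member with a forkhead element. Each is the 250 bases before the annotated start, 5′ to 3′ on the gene's strand. Capitals mark GGGCGG (the GC box), CACGTG (the E-box) and GTAAACA (the forkhead element), on either strand.
Foxo1 (chr3:52268087-52268336, plus strand): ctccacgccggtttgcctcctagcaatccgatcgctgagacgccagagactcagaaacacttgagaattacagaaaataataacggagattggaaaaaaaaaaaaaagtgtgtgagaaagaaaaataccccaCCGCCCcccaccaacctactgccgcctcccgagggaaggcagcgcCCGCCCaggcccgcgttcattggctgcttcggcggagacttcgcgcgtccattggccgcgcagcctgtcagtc
Foxo3 (chr10:42276696-42276945, minus strand): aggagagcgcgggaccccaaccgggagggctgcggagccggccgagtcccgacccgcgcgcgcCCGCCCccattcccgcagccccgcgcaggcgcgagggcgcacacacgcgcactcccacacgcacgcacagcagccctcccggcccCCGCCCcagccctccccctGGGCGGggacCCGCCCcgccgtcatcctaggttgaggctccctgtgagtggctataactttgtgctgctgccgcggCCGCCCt
Klf6 (chr13:5861239-5861488, plus strand): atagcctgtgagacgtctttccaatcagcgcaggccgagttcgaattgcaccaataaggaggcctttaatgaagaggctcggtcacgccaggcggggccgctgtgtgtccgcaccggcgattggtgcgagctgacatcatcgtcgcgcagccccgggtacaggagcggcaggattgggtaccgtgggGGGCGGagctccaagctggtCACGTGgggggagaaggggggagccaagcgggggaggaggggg
Il7r (chr15:9529877-9530126, minus strand): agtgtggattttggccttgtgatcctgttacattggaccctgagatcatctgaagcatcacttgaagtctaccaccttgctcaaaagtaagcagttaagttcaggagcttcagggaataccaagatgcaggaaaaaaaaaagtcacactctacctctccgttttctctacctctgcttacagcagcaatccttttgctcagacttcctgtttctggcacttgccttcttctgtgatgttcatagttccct
Btg1 (chr10:96616751-96617000, plus strand): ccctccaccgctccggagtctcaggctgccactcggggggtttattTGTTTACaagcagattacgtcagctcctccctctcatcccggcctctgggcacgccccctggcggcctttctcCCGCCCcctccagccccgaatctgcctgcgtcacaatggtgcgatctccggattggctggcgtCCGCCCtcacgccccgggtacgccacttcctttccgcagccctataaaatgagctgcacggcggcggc

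These windows differ in base composition. The Il7r window held 44.0% G and C and none of the 3 elements, and Foxo3's held 76.4% with 5 GC boxes. Foxo1's held 56.0% and 2 GC boxes. The Klf6 window (64.8%) held 1 GC box and 1 E-box, and Btg1's (65.2%) held 2 GC boxes and GTAAACA at position -204 from the start. Over all 32851 windows of this length the median was 52.4% G and C. GGGCGG stood in 32.7% of them, CACGTG in 6.02% and GTAAACA in 3.17%. A match is a run of letters and not a measured binding site. The authors' mapping used the build mm9, so these coordinates belong to RefSeq's build and not to their files.

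**Figure D1:**
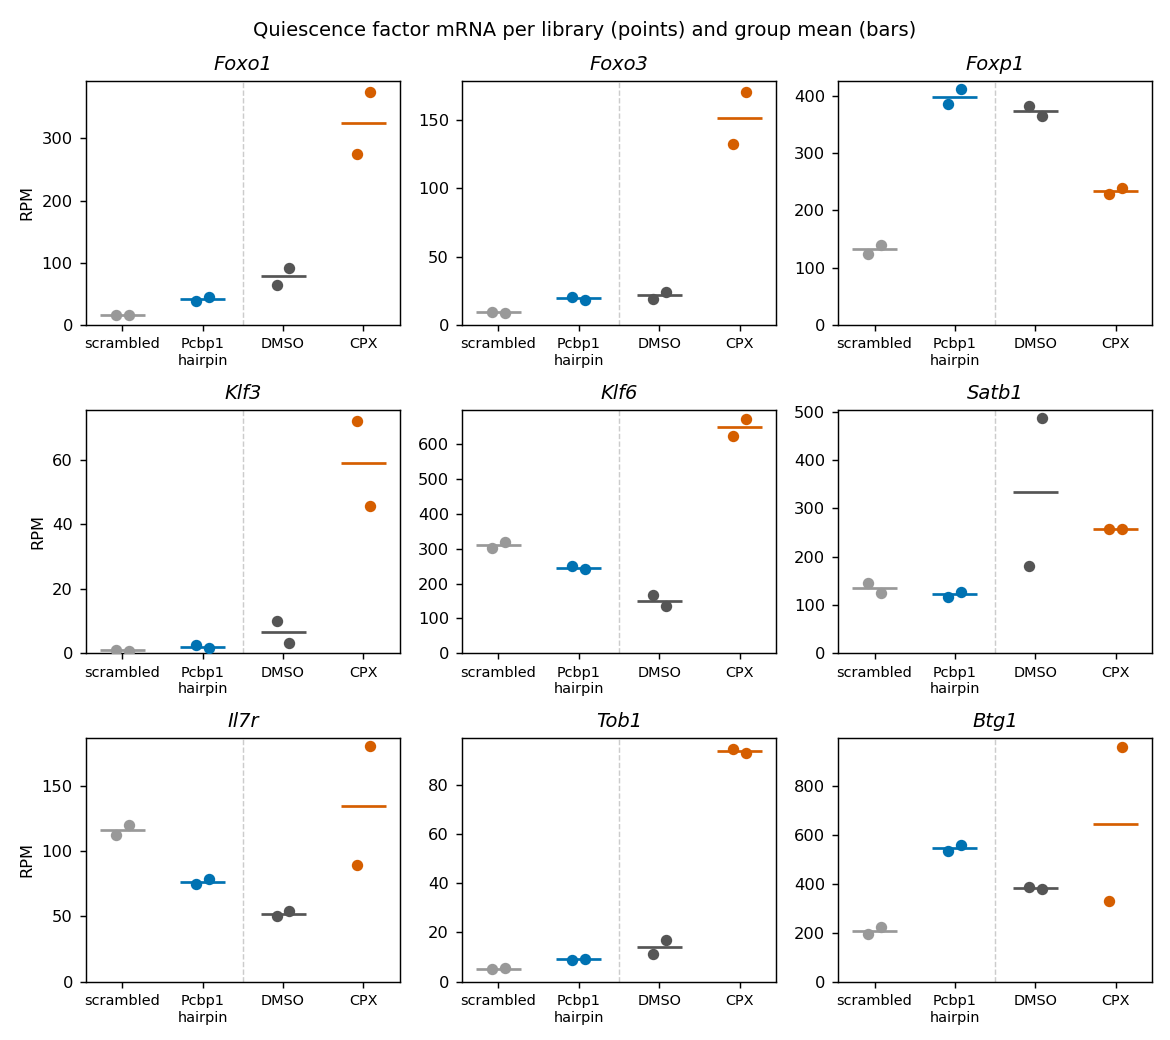
Level in RPM of each of the 9 genes in the 8 libraries (points, 2 per group) with the group mean (bar). Scrambled and Pcbp1 hairpin stand left of the dashed line, DMSO and CPX right of it, and each panel has its own axis from 0. Foxo1, Foxo3, Klf3 and Tob1 are higher in the second group on both sides of the line, whereas Klf6 and Il7r go down on the left and up on the right and Foxp1 does the reverse.

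The Pcbp1 hairpin was set against the scrambled hairpin to find transcripts that change with Pcbp1 knockdown. Of the 9 genes 6 rose (Foxo1, Foxo3, Foxp1, Klf3, Tob1 and Btg1) and 3 fell (Klf6, Satb1 and Il7r), by edgeR's quasi-likelihood test at a Benjamini-Hochberg adjusted p under 0.05 over all 11575 genes tested. Over all those genes 29.3% rose and 26.7% fell, 56.0% together. The members' median log2 fold change was 0.98, against 0.00 for all genes tested. The 2 hairpin libraries lay wholly above or below the 2 scrambled ones for 8 of 9 members, as they did for 78.5% of all genes tested.

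CPX was set against DMSO to find transcripts that change when cellular iron is chelated. Here 6 of the 9 rose (Foxo1, Foxo3, Klf3, Klf6, Il7r and Tob1), 1 fell (Foxp1) and 2 did not pass (Satb1 and Btg1), by limma on log2(RPM + 0.5) with the same adjustment over 11485 genes. Among all genes tested 20.0% rose and 24.8% fell, 44.7% together. The members' median was 2.06 and that of all genes tested -0.12. Scaling by median ratios moved the latter to 0.03, and edgeR on worked-back reads to 0.02, with 2541 genes risen and 2453 fallen. The groups did not overlap for 7 of 9 members and for 76.3% of all genes tested.

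The size of the effects was tested against each other in 1 limma fit over all 8 libraries, as the knockdown log2 fold change minus that of CPX. The difference passed for 6 of 9 members (5 lower and 1 higher in the knockdown), against 51.3% of the 10430 genes tested. Its median was -1.73 over the members and 0.40 over all genes, and with median ratio scaling the latter was 0.00. Of all genes that passed, 3671 were higher in the knockdown and 1675 lower, which became 2738 and 2514 with that scaling. RNA selection differed between the experiments, so the perturbation and the RNA selection cannot be told apart in this difference.

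**Figure D2:**
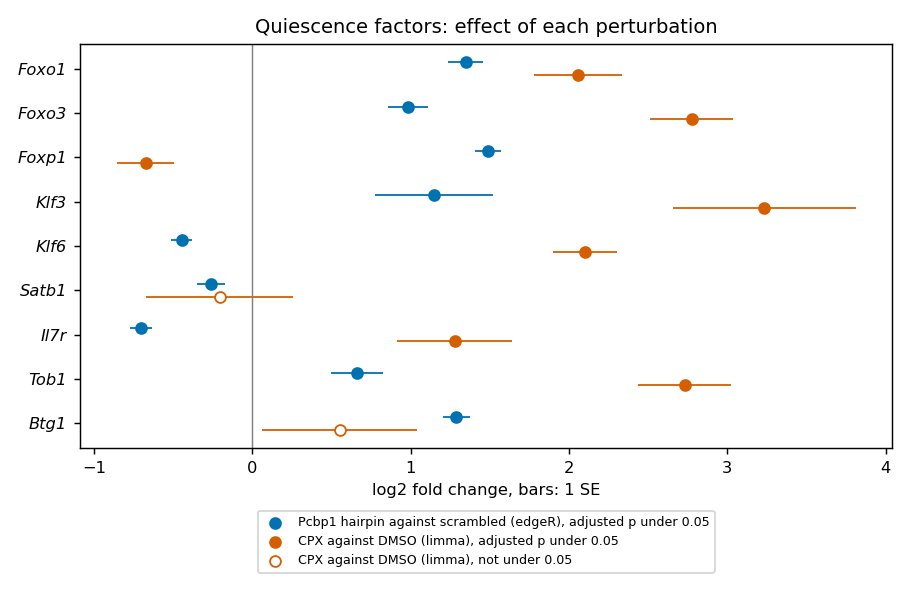
Log2 fold change of each gene with its standard error (bars) for the Pcbp1 hairpin against scrambled (blue, edgeR) and CPX against DMSO (orange, limma). Filled points have an adjusted p under 0.05 and open points do not. Klf6, Il7r and Foxp1 have filled points on opposite sides of 0, and the open points are Satb1 and Btg1 with CPX.

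Foxo1, the main FOXO factor of resting T cells, read 15.2 and 15.0 RPM with the scrambled hairpin and 38.8 and 44.1 with the Pcbp1 hairpin. With DMSO it read 64.2 and 91.6 RPM, and with CPX 275 and 375. In both experiments the treated libraries lay above both controls. It rose by a log2 fold change of 1.35 in the knockdown (SE 0.11, edgeR adjusted p = 6.22e-05), a 2.54-fold change, and by 2.06 with CPX (SE 0.28, limma adjusted p = 0.00426), a 4.16-fold change. The difference of -0.64 (SE 0.31) did not pass in limma (adjusted p = 0.125), which does not show equal effects. It passed with median ratio scaling (-1.05, limma adjusted p = 0.0131), with quantile normalization (-0.97, limma adjusted p = 0.0264) and without CPX replicate 1 (-0.86, limma adjusted p = 0.0307). The annotated antisense transcript Gm20402 overlaps Foxo1, and the sources used here do not say whether counting used strand.

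Foxo3, its paralog, which induces arrest and apoptosis genes, read 9.59 and 8.80 RPM with scrambled and 20.6 and 18.5 with hairpin. DMSO libraries held 19.3 and 24.1 RPM and CPX libraries 133 and 171. The CPX values stood far above every other library, and neither comparison overlapped. The rise was 0.98 in the knockdown (SE 0.13, edgeR adjusted p = 4.39e-04) and 2.78 with CPX (SE 0.26, limma adjusted p = 0.00251), the latter a 6.85-fold change. The smaller rise in the knockdown was separated from that with CPX (difference -1.73, SE 0.28, limma adjusted p = 0.00198). With transcript length and GC content taken out of each library, the knockdown value was 0.53 (limma adjusted p = 0.0117). Foxo4, the remaining FOXO gene above the filter, read 0.16 in the knockdown (edgeR adjusted p = 0.591) and 0.45 with CPX (limma adjusted p = 0.299).

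Foxp1 read 124 and 140 RPM with scrambled and 385 and 411 with hairpin, the largest knockdown fold change of the 9 members (log2 1.49, SE 0.08, edgeR adjusted p = 1.64e-05), a 2.81-fold rise. With CPX it went the other way, from 382 and 365 RPM in DMSO to 229 and 239. Neither comparison overlapped. The fall with CPX was small (-0.68, SE 0.18, limma adjusted p = 0.0302), and it did not pass in edgeR on the worked-back reads (-0.56, adjusted p = 0.0823), with median ratio scaling (-0.52, limma adjusted p = 0.0951), without DMSO replicate 1 (limma adjusted p = 0.275) or without DMSO replicate 2 (limma adjusted p = 0.225). In the authors' deposited table its adjusted p with CPX was 0.0922. The difference between the experiments was 2.27 (SE 0.17, limma adjusted p = 1.03e-04) and passed in all 14 alternative fits. The annotated protein-coding gene Gm20696 and the miRNA Gm49348 overlap Foxp1 on the same strand, and could share reads with it.

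Foxp4, the paralog of Foxp1, had values on the same sides. It read 27.3 and 28.9 RPM with scrambled, 82.9 and 82.4 with hairpin (log2 1.45, edgeR adjusted p = 1.55e-05), 211 and 244 with DMSO and 151 and 120 with CPX (-0.75, limma adjusted p = 0.0398, and adjusted p = 0.0913 in edgeR on worked-back reads). Foxo6, Foxp2 and Foxp3 lay below the filter in both experiments.

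Klf3, a transcriptional repressor of the Krueppel-like family, was the scarcest of the members in counts. Knockdown counts were 13 and 12 in the scrambled libraries and 41 and 22 in the hairpin libraries, or 0.917, 0.838, 2.64 and 1.54 RPM. The exact 95% binomial interval of the lower hairpin library, 0.964 to 2.33 RPM, overlapped that of the higher scrambled one, 0.488 to 1.57, and such intervals cover counting error only. With DMSO it read 10.1 and 3.07 RPM and with CPX 72.1 and 45.7, so the DMSO libraries differed by over 2-fold and both lay below both CPX libraries. Gm20033 overlaps Klf3 on the opposite strand in the annotation.

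The knockdown rise of Klf3 was 1.15 (SE 0.37, edgeR adjusted p = 0.0329). It did not pass without scrambled replicate 1 (edgeR adjusted p = 0.0721), scrambled replicate 2 (0.0936) or hairpin replicate 1 (0.219), nor with length and GC content taken out (limma adjusted p = 0.0624), and the authors' deposited table gave an adjusted p of 0.188 for it. The CPX rise was 3.23 (SE 0.58, limma adjusted p = 0.00877), a 9.41-fold change, and did not pass without CPX replicate 1 (0.0803), without CPX replicate 2 (0.0525) or with no filter on low values (0.0512). The difference was -2.36 (SE 0.72, limma adjusted p = 0.0294). It was not called without scrambled replicate 1 (limma adjusted p = 0.0839), scrambled replicate 2 (0.0762), hairpin replicate 2 (0.102) or CPX replicate 1 (0.0664), or with no filter (0.0812).

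Klf6, an early-response Krueppel-like factor, moved in opposite directions. It read 301 and 320 RPM with scrambled and 249 and 242 with hairpin, a small drop. DMSO libraries held 166 and 136 RPM, and CPX libraries 623 and 673. The groups of neither experiment overlapped. The knockdown value fell by 0.45 on the log2 scale (SE 0.06, edgeR adjusted p = 7.96e-04), a 1.36-fold change, and by 0.23 with length and GC content taken out (limma adjusted p = 0.0243). With CPX it rose by 2.10 (SE 0.20, limma adjusted p = 0.00255), a 4.29-fold change. The difference of -2.44 (SE 0.19, limma adjusted p = 1.21e-04) was the farthest from 0 among the members.

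Klf2, a FOXO1-induced factor of T cell quiescence, is a paralog of Klf3 and Klf6 and read near the filter in 6 libraries. Its values were 1.90 and 0.698 RPM with scrambled, 1.74 and 1.89 with hairpin, 1.07 and 2.61 with DMSO, and 21.8 and 16.7 with CPX. Only the CPX libraries stood apart. The CPX rise was 3.15 (limma adjusted p = 0.00454), and the knockdown value of 0.37 did not pass (edgeR adjusted p = 0.498).

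Satb1, a chromatin organizer of thymocytes and T cells, had no change that held when single libraries were left out. It read 146 and 125 RPM with scrambled and 117 and 127 with hairpin, so the groups overlapped. The call in the knockdown (-0.26, SE 0.09, edgeR adjusted p = 0.0378) did not hold without scrambled replicate 1 (edgeR adjusted p = 0.218), without hairpin replicate 1 (0.156) or with limma (0.183). The authors' deposited table gave 0.0572.

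The DMSO libraries of Satb1 read 180 and 486 RPM, over 2-fold apart, around CPX libraries of 256 and 257. The CPX value of -0.21 (SE 0.46) did not pass (limma adjusted p = 0.741). Its sign rested on 1 library: it was 0.51 without DMSO replicate 2 and -0.92 without DMSO replicate 1, neither passing (limma adjusted p = 0.383 and 0.129). The difference of 0.05 (SE 0.56, limma adjusted p = 0.945) became 0.77 without DMSO replicate 1 (limma adjusted p = 0.0289) and -0.66 without DMSO replicate 2 (0.0473). Gm36931 and Gm6934 overlap Satb1 in the annotation.

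Il7r encodes the alpha chain of the receptor for interleukin 7, the survival cytokine of resting T cells. It read 112 and 120 RPM with scrambled and 75.1 and 78.3 with hairpin, a fall with no overlap. With DMSO it read 50.2 and 54.0 RPM and with CPX 89.5 and 180, both above DMSO but over 2-fold apart. The knockdown value was -0.71 (SE 0.07, edgeR adjusted p = 1.29e-04), a 1.63-fold fall, and -0.30 with length and GC content taken out (limma adjusted p = 0.0111). The CPX rise was 1.28 (SE 0.37, limma adjusted p = 0.0359). It was 1.78 without CPX replicate 1 and 0.78 without CPX replicate 2, and did not pass without DMSO replicate 1 (limma adjusted p = 0.147), DMSO replicate 2 (0.119) or with no filter (0.104). The difference was -1.87 (SE 0.41, limma adjusted p = 0.00765).

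Foxo1 and Il7r thus moved apart in the knockdown, where Foxo1 and Foxp1 rose and Il7r fell, and Foxo1 and Il7r rose together with CPX, where Foxp1 read lower. Whether these changes are linked was not tested.

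Tob1, an antiproliferative protein that restrains T cell activation, read 5.08 and 5.66 RPM with scrambled and 9.02 and 9.30 with hairpin. It read 11.1 and 16.8 RPM with DMSO and 94.5 and 92.7 with CPX. The DMSO libraries lay farther apart than the CPX libraries, and neither comparison overlapped. It rose by 0.66 in the knockdown (SE 0.16, edgeR adjusted p = 0.0105) and by 2.73 with CPX (SE 0.29, limma adjusted p = 0.00293), a 6.64-fold change. The difference was -2.01 (SE 0.32, limma adjusted p = 0.00185). The knockdown call did not hold in DESeq2 (adjusted p = 0.0656), without scrambled replicate 1 (edgeR adjusted p = 0.0585) or without hairpin replicate 2 (0.0553), and its adjusted p in the authors' deposited table was 0.0768.

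Btg1, a growth suppressor of resting lymphocytes, read 194 and 223 RPM with scrambled and 535 and 560 with hairpin. The groups were far apart, and the rise was 1.29 (SE 0.08, edgeR adjusted p = 2.85e-05), a 2.44-fold change. With CPX the libraries split: 331 and 958 RPM against 389 and 379 with DMSO. One CPX library lay below both DMSO libraries and the other far above them, so no direction was resolved (0.55, SE 0.49, limma adjusted p = 0.393).

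Without CPX replicate 1 the CPX value of Btg1 was 1.32 (limma adjusted p = 0.0162), and without CPX replicate 2 it was -0.21 (0.219). The difference of 0.84 (SE 0.59, limma adjusted p = 0.268) was 1.61 without CPX replicate 2 (limma adjusted p = 1.25e-04) and 0.08 without CPX replicate 1. The annotation lists the pseudogenes Btg1-ps1 and Btg1-ps2, which could share reads with Btg1.

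The other BTG and TOB genes were mixed. Tob2 rose in the knockdown (25.5 and 24.9 to 67.1 and 62.4 RPM, log2 1.26, edgeR adjusted p = 3.14e-05) and did not pass with CPX (0.38, limma adjusted p = 0.264). Btg2 fell in the knockdown, from 66.6 and 52.7 to 48.1 and 34.3 RPM (-0.64, edgeR adjusted p = 0.0132). With CPX it rose, from 46.9 and 64.3 to 108 and 271 RPM (1.63, limma adjusted p = 0.0354). Btg3 read -0.11 in the knockdown (edgeR adjusted p = 0.587) and 0.81 with CPX (limma adjusted p = 0.0465).

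The 9 genes therefore fell into 3 kinds by their calls. Foxo1, Foxo3, Klf3 and Tob1, 4 in all, were called as risen in both experiments, but Klf3 entered the knockdown test only through its hairpin libraries and its adjusted p there was 0.188 in the authors' deposited table. Foxp1, Klf6 and Il7r, 3 in all, were called in opposite directions, but the CPX calls of Foxp1 and Il7r depended on the processing. That of Foxp1 did not pass with median ratio scaling or in edgeR on worked-back reads, and its adjusted p was 0.0922 in the authors' deposited table. That of Il7r did not pass with no filter on low values. Satb1 and Btg1, the remaining 2, were called in the knockdown only, and for neither did the difference between the experiments pass. Over the group means, CPX stood highest for Foxo1, Foxo3, Klf3, Klf6, Il7r, Tob1 and Btg1, the Pcbp1 hairpin for Foxp1 and DMSO for Satb1. In that order the hairpin and DMSO libraries of Foxo3 overlapped, as did the scrambled and CPX libraries of Il7r and the hairpin and CPX libraries of Btg1, and levels set across the experiments also carry their different RNA selection.

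**Figure D3:**
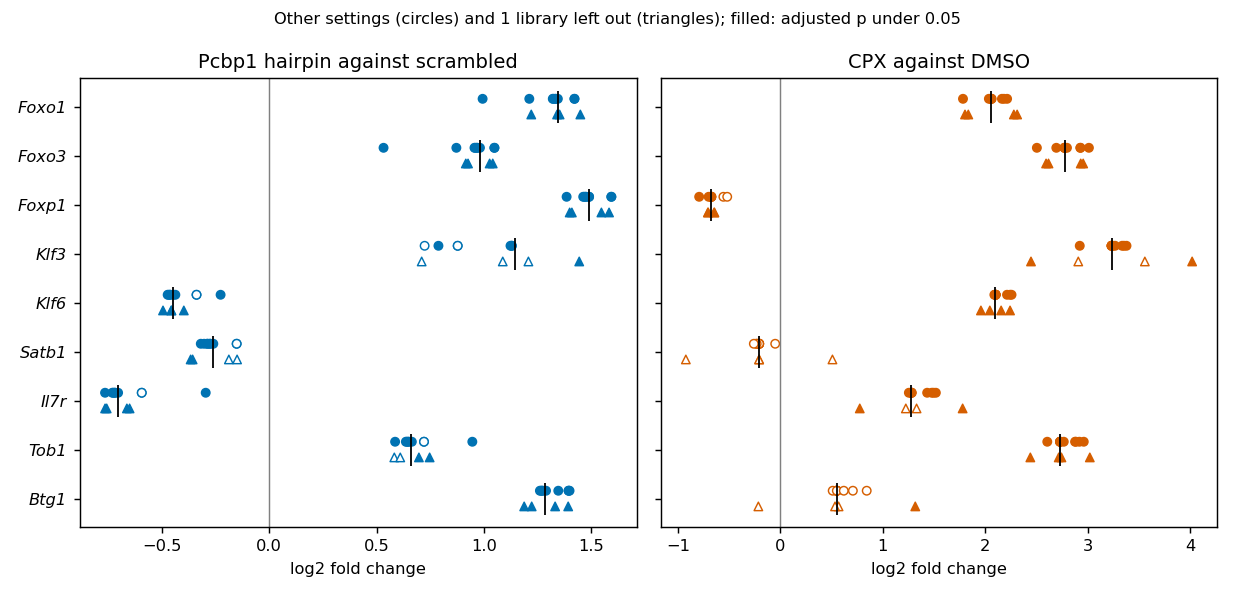
Log2 fold change of each gene under the other processing settings (circles) and with 1 library left out (triangles), knockdown on the left and CPX on the right. The vertical bar is the reported value, and filled symbols have an adjusted p under 0.05. Foxo1, Foxo3, Foxp1 and Btg1 are filled throughout on the left and Foxo1, Foxo3, Klf6 and Tob1 throughout on the right, and Satb1 and Btg1 lie on both sides of 0 with CPX.

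Among the knockdown calls, those of Foxo1, Foxo3, Foxp1 and Btg1 passed in all 13 alternative fits. Those of Klf6 and Il7r failed only when all 8 libraries shared 1 estimate of the spread (limma adjusted p = 0.105 and 0.178). With CPX, Foxo1, Foxo3, Klf6 and Tob1 passed in all 14. For the difference, Foxo3, Foxp1, Klf6, Il7r and Tob1 passed in all 14.

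The genes around the members were described as lists, by their counts and medians. Each list and marker count below stands beside the shares over all genes tested. In the knockdown 29.3% rose and 26.7% fell, and with CPX 20.0% rose and 24.8% fell. Of 12 tested forkhead genes 10 rose and 1 fell in the knockdown (median 1.14), and without Foxo1, Foxo3 and Foxp1, 7 of 9 rose. Foxk1 (1.41), Foxk2 (1.23) and Foxp4 (1.45), all forkhead factors, rose among them. With CPX the family was split, with 4 of 13 risen and 3 fallen (median 0.31). Foxj1, a regulator of ciliogenesis that also restrains T cell activation, rose by 2.72, having passed the filter only with the CPX libraries, and Foxn3 by 1.23, and Foxk1 fell by 1.88 on the log2 scale.

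Krueppel-like factors showed the reverse emphasis. In the knockdown 4 of 11 rose and 1, Klf6, fell (median 0.37), Klf3 among the risen through the filter described above, with rises of Klf13 (1.28), Klf16 (0.68) and Klf11 (1.05). With CPX 9 of 13 rose and none passed as fallen (median 1.93, and 1.49 over the 11 without Klf3 and Klf6). Of the 9, 4 (Klf4, Klf5, Klf8 and Klf12) passed the filter on low values only with the help of CPX libraries, so their direction is no independent support, and of the 9 genes with both DMSO libraries at 1 RPM or more 5 rose. Klf4 rose by 4.48 and Klf10, a TGF-beta induced factor, by 4.59. Klf4 read 28.1 and 31.1 RPM with CPX against 1.07 and 0.665 with DMSO.

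Genes that FOXO factors are known to induce, 26 tested, numbered 8 risen and 3 fallen in the knockdown (median 0.23) and 12 risen and 1 fallen with CPX (median 1.08). The 8 risen of 26 in the knockdown lay near the 29.3% of all genes tested that rose there. With CPX 20.0% of all genes tested rose and 24.8% fell. In the knockdown Sod2, the mitochondrial superoxide dismutase, rose by 0.95 and Bcl2l11, the death gene BIM, by 0.86. Sod2 went the other way with CPX, as the 1 gene of the list that fell there (-1.65, limma adjusted p = 0.00424). Of the 3 that fell in the knockdown, 2 lie outside the members. With CPX the 3 genes of smallest p outside the members were Ccng2, a cyclin of arrested cells (3.64), Bcl6, a transcriptional repressor (2.66), and Gadd45a, a growth arrest gene (2.43). Il7r is itself on the list.

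Genes of the AKT branch that restrains FOXO proteins, 33 tested, counted 14 risen and 2 fallen in the knockdown (median 0.19) and 12 risen and 5 fallen with CPX (median 0.02). Ywhag, a 14-3-3 protein that can hold phosphorylated FOXO, rose by 1.49 in the knockdown, the coactivator Crebbp by 1.22 and the mTORC1 subunit Rptor by 1.03. With CPX the mTORC1 activator Rheb rose by 1.70, the coactivator Ep300 by 1.39 and the PI3K regulatory subunit Pik3r1 by 1.51. Phosphorylation and location of FOXO proteins were not measured.

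The list of IL-7 receptor and common gamma chain signalling, 19 tested, had 7 risen and 5 fallen in the knockdown (median 0.09) and 4 risen and 3 fallen with CPX (median -0.02). In the knockdown Ptpn2, a phosphatase of JAK and STAT proteins, fell by 0.97, and the kinase Pim1 (0.68) and the receptor chain Il2rb (0.79) rose. With CPX both STAT5 genes, which carry the signal of IL-7, fell while Il7r rose. Stat5a read 1062 and 980 RPM with DMSO and 36.5 and 149 with CPX (-3.78, limma adjusted p = 0.00723), and Stat5b 311 and 368 against 22.9 and 42.2 (-3.42, limma adjusted p = 0.00259). Il2rb, shared by the IL-2 and IL-15 receptors, rose by 1.90.

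Other genes reported to hold T cells at rest, 29 tested, gave 12 risen and 5 fallen in the knockdown (median 0.08) and 13 risen and 5 fallen with CPX (median 0.62). Bach2, a repressor of effector genes, rose by 1.12 in the knockdown, and Dgka, a kinase that removes diacylglycerol, fell by 1.51. Slfn2, whose loss breaks T cell quiescence, read 1367 and 1275 RPM with DMSO and 17.3 and 45.3 with CPX (-5.53). The VISTA gene 4632428N05Rik fell by 2.29 with CPX, and Pdcd4, an inhibitor of translation initiation, rose by 3.08. The quiescence genes thus did not move one way with CPX.

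The deadenylase and SATB1 partner lists had medians nearer to 0 than the forkhead list in the knockdown and the Krueppel-like list with CPX. BTG and TOB genes with the CCR4-NOT subunits, 15 tested, had 7 risen and 3 fallen in the knockdown (median 0.19) and 3 risen and 3 fallen with CPX (median -0.03). Cnot3 rose by 1.23 and Rqcd1 by 0.64 in the knockdown, and Cnot10 fell by 0.84 and Cnot6 by 0.69 with CPX. Of 8 tested SATB1 partners, Satb1 included, 3 rose and 3 fell in the knockdown (median -0.16), where the remodellers Smarca4 (1.30) and Chd4 (1.21) and the insulator factor Ctcf (1.30) rose. With CPX 2 rose, Kat2b (2.02) and Hdac1 (0.88), and 1 fell, Ctcf (-0.74), with a median of -0.23.

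Proliferation genes, which quiescence factors hold down, were set beside the members. Of 20 tested, 7 rose and 5 fell in the knockdown (median 0.11) and 0 rose and 12 fell with CPX (median -1.48). Myc read 1552 and 1263 RPM with DMSO and 56.9 and 45.0 with CPX (-4.78), and Cdk1 fell by 2.84 and Cdk4 by 1.84. In the knockdown Myc rose, from 364 and 449 RPM in the scrambled to 781 and 917 in the hairpin libraries (0.96, edgeR adjusted p = 4.67e-04). Cdk6 (0.93), Mcm4 (0.96) and Ccnd2 (0.97), the 3 genes of the list with the smallest p there, also rose. The 5 that fell are not named. The 7 risen and 5 fallen of 20 lay near the shares of all genes tested in the knockdown, 29.3% risen and 26.7% fallen.

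**Figure D4:**
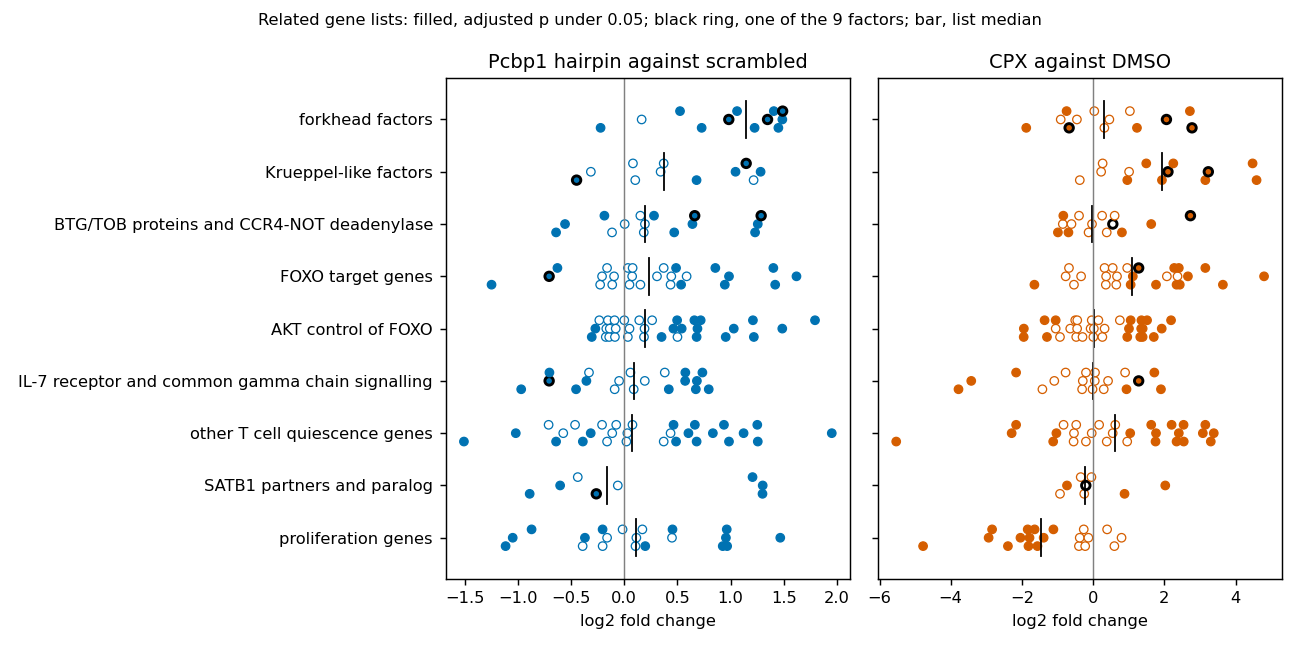
Log2 fold change of every tested gene of the related lists, knockdown on the left and CPX on the right. Filled points have an adjusted p under 0.05, black rings mark the 9 members, and the vertical bar is each list's median. Forkhead genes lie mostly right of 0 in the knockdown (median 1.14), Krueppel-like factors right of 0 with CPX (1.93) and proliferation genes left of 0 with CPX (-1.48).

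Markers of other cells stand beside the CPX rises of the members. The summed level of 12 myeloid markers was 1.55 to 3.50 RPM in the knockdown libraries, 3.10 and 3.12 with DMSO and 74.6 and 58.3 with CPX. Of these 12, 2 were at 0 in every library and 8 stayed below 1 RPM throughout, and the 4 tested with CPX all rose, Itgam by 4.08, Mpo by 3.68 and Emr1 by 3.26, the latter 2 having passed the filter only with the CPX libraries. The sums of 8 B cell markers were 18.8 and 9.77 RPM with DMSO and 34.2 and 10.4 with CPX, and those of 8 CD8 and NK markers 19.6 and 23.2 against 39.9 and 25.5. The fibroblast list, which holds Vim and Thy1, summed to 1044 and 1639 RPM with DMSO and 2583 and 2143 with CPX. It also summed to 491 and 442 RPM with scrambled and 602 and 463 with hairpin. Of its 8 genes 4 stayed below 1 RPM throughout. Of the 3 tested with CPX 2 rose, and Col1a1 passed the filter only with the CPX libraries. The sum was not read as a measure of fibroblasts. Erythroid markers stayed under 1.40 RPM in every library. In the knockdown the CD8 and NK sum followed the replicate number, at 283 and 103 RPM with scrambled and 234 and 84.2 with hairpin. The part of other cells in the members' values was not tested.

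For each member the 2 genes most like it were found over the 8 libraries, as Pearson's r of the log2 level minus its experiment's control mean among 8111 genes (8112 for Klf3), and the coefficients describe 4 groups of 2 libraries rather than 8 independent samples. Klf6 was most like Hsp90aa1, the inducible cytosolic HSP90 (r = 1.000), which read -0.32 in the knockdown and 1.45 with CPX, and Trafd1 (0.998). Il7r was most like Ing4 (0.999) and Amn1 (0.996), Foxp1 like Klhl5 (0.999) and Rtf1 (0.998), and Foxo3 like Adcy3 (0.997) and Vps13b (0.995). Tob1 was closest to Kbtbd7 and Sh3bp2 (both 0.997), Foxo1 to Rapgef2 (0.991) and Tshz1 (0.990), Klf3 to Itpr1 and Tle4 (both 0.991), and Btg1 to Cep120 and Ern1 (both 0.995). Satb1 had the weakest match, Pik3cd at 0.944 and Gimap7 at 0.930. A coefficient takes no account of the size of a change. Of the 2 genes most like Foxo3, Adcy3 read 1.03 in the knockdown and 2.84 with CPX, and Vps13b 0.22 and 0.90.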

How the data were processed

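RNA-seq of 8 libraries was used. Per the submitters' processing notes, the tools were DESeq, HTSeq, STAR and cutadapt and the build was mm9, and the sources used here give no versions, annotation, filters or strand. The table of libraries is titled RPM, but its deposited knockdown columns hold raw counts and its CPX columns, taken here as a score, are counts divided by one common factor (1.98 reads per unit) and rounded. The authors' 2 result tables give, per the file headers, log2 fold changes and their errors, p-values raw and adjusted, a Wald statistic (a score), and a mean signal of the size-factor scaled counts.

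From a constant line in the per-library table on, labels are displaced by one gene. They were set right by position and checked against the authors' mean signal in both tables. A further 120 lines were given their gene by that mean signal alone, with no such check. Of 33899 lines 61 were left out, and 4 of the 9 members carried displaced labels. Whole CPX reads were worked back from the deposited scores and the authors' mean signal for 14643 of 14646 genes with a mean of at least 5, and tested as an alternative chosen after seeing the data.

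RPM was a value over its library's total. A gene was tested if 2 or more of an experiment's 4 libraries reached 1 RPM (for the difference, in each experiment), the knockdown with edgeR 4.0.16 (quasi-likelihood, TMM), CPX and the difference with limma 3.58.1 (trended) on log2(RPM + 0.5), in R 4.3.3, with Benjamini-Hochberg adjustment over all genes tested and a threshold of 0.05. A fold change from limma is on that log2 scale and understates low genes. The knockdown SE was derived from edgeR's F statistic (log2 fold change divided by its root), so the SEs of the experiments are not the same quantity. DESeq2 1.42.0, other scalings, filters and pseudocounts, length and GC content, a replicate block and leaving out each library were alternatives. Like the worked-back reads, taking out length and GC content was not planned beforehand. Nor was median ratio scaling with CPX and for the difference. The fits were also run on simulated data with few changed genes and equal numbers of rises and falls. That setting is unlike these data, and its outcome is not used here.

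The members, the gene lists and the tests were chosen with earlier results of these data known. Beside the members, the text names their paralogs, up to 3 genes of each list with the smallest p in a comparison, and for each member the 2 genes most like it; 1 gene so chosen is not reported here. The values per library of Klf4, Myc, Stat5a, Stat5b and Slfn2 were chosen for printing after they were seen.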

Additional observations from a re-analysis of the deposited data

How the results depend on the processing

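Over the members' single values, 323 alternatives kept direction and side of the threshold, 30 lost the call, 6 gained one and 7 changed sign. Members risen in the knockdown numbered 4 rather than 6 with DESeq2, which gave Klf3 no adjusted p, and members fallen 2 rather than 3 with limma on log2(RPM + 0.5). In 1 fit of all 8 libraries, 2617 genes were called in the knockdown against 6482, with 4 members risen and 0 fallen, and the split over all genes was 1926 risen and 691 fallen against 3396 and 3086. With length and GC content taken out it was 3505 and 1897. Leaving out 1 library at a time gave 4 to 5 members risen and 2 to 3 fallen there. With CPX, 4 members rose with no filter on low values. None fell (0) with median ratio scaling or in edgeR on worked-back reads, where 1 did in the reported fit. Leaving out 1 library gave 2103 to 5788 genes called against 5139, and 0 to 1 members fallen; the 2103 and 2355 came without DMSO replicate 1 and 2. The sign changed for Satb1 with CPX (0.51 without DMSO replicate 2, -0.92 without replicate 1) and Btg1 with CPX (-0.21 without CPX replicate 2, 1.32 without replicate 1). For the difference of Satb1 it changed with quantile normalization (-0.080), with median ratio scaling (-0.37), and without scrambled replicate 2 (-0.06), hairpin replicate 2 (-0.01) or DMSO replicate 2 (-0.66, and 0.77 without DMSO replicate 1). The cause was not tested, except that leaving out libraries leaves fewer samples and a group of 1 library, assumed to vary like the others. With a replicate block 7348 genes were called in the knockdown and 5677 with CPX, and no member's call changed. For the difference, quantile normalization gave 2782 genes higher and 2580 lower. Same-numbered libraries' deviations correlated at 0.289 and 0.101, over 2 pairs whose pairing the labels do not state. Klf3 rests on 12 to 41 reads a library in the knockdown.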
